A study of Mus musculus with 10 samples.

Results

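The experiment asked how T cells respond to mRNA for IL-12 and mRNA for IL-18 when both are delivered together, beyond what each does alone. It is a 2 by 2 design with 4 groups of 2 libraries, 8 of the 10 libraries of the series. All cells came from the spleen of pmel-1 mice, whose CD8 T cells carry a transgenic receptor for the melanoma antigen gp100. Cells of every group were activated for 48 h with hgp100, kept for a further 48 h with hIL-2, electroporated and collected for RNA 24 h later. No step that removes other spleen cells is named in the labels. The groups are Mock (electroporated controls; which mRNA they received was not given in the sources used here), DRIL18 (mRNA for decoy-resistant IL-18, a variant made to escape the binding protein that neutralises IL-18), IL12 (mRNA for IL-12) and the mixture of both mRNAs. The remaining pair of libraries, cells without electroporation (NoEp), entered only the estimate of the spread between replicates, the filter on low counts and the scaling. For the mice, strain and age were not given in the sources used here. Submitters' labels call the libraries biological replicates without saying that they came from separate animals, so p-values reflect the spread among these libraries alone, which may be technical.

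The quantity described is the interaction of IL12 with DRIL18. For each gene it is the log2 effect of DRIL18 in the presence of IL12 (mixture against IL12) less the log2 effect of DRIL18 in its absence (DRIL18 against Mock). The same number results from the effect of IL12 with and without DRIL18. An interaction of 0 means that the fold changes of the single mRNAs multiply in the mixture. A gene is called above where the mixture exceeded that product and below where it fell short of it, in both cases at an adjusted p under 0.05 (edgeR's quasi-likelihood test with Benjamini-Hochberg adjustment over all tested genes). Where a gene name is followed in brackets by a value and an adjusted p, the value is this log2 interaction. Levels are CPM, counts scaled to the library size, which are not divided by gene length and serve to compare libraries within a gene.

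IL-12 binds the receptor chains IL-12Rβ1 and IL-12Rβ2 and signals through the kinases JAK2 and TYK2 to the transcription factor STAT4. IL-18 binds IL-18R1 and its partner IL-18RAP and signals through MyD88 and IRAK kinases to NF-κB and p38. In T cells the pathways are known to meet at the gene for IFN-γ, and IL-12 is known to raise the IL-18 receptor. IFN-γ itself acts on genes of antigen presentation and on guanylate-binding proteins.

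Promoters of 3 genes are printed as examples and do not show which binding sequences go with either direction. They are Ifng, which lay above the product, the NF-κB target Nfkbia, which lay above it as well, and the IFN-γ target Gbp2, which lay below it. Each sequence is the 250 bases before the gene's start, written 5′ to 3′ on the gene's strand, from RefSeq on GRCm38.p6, with letters that match a searched motif in capitals.
Ifng, chr10:118440796-118441045, plus strand: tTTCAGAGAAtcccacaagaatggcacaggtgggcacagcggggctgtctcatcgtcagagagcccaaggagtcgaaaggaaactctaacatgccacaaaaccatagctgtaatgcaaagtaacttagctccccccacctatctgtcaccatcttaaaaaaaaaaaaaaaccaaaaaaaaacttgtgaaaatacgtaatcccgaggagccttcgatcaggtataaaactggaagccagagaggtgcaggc
Nfkbia, chr12:55492648-55492897, minus strand: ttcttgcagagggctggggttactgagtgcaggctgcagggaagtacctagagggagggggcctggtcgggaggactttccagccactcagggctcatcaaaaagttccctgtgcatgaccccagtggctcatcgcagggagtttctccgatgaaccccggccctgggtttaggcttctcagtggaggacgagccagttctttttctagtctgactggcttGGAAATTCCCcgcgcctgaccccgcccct
Gbp2, chr3:142620413-142620662, plus strand: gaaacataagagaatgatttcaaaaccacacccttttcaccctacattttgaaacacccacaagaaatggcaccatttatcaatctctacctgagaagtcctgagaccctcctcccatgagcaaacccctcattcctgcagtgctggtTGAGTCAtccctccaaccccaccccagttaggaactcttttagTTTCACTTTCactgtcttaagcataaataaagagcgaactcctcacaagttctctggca
In Ifng the capitals are a GAS match (TTCNNNGAA, bound by STAT factors), 249 to 241 bases before the start. In Nfkbia they are a kappa B match, the binding sequence of NF-κB, at 29 to 20 bases. In Gbp2 they are an AP-1 match (TGANTCA) at 102 to 96 bases and an ISRE match on the other strand (interferon-stimulated response element, bound by IRF and STAT factors) at 59 to 50 bases. On either strand, GAS letters occur in 7.02% of 32851 promoter windows of this length, ISRE letters in 2.98%, AP-1 letters in 6.75% and kappa B letters in 3.90%. A hypoxia element (ACGTG) was also searched; it occurs in 16.6% of the windows and had no match in these promoters. A match describes the letters and is not a shown binding site. Shares of motifs were not compared between genes above and below the product, because promoters were at hand for 65.7% of the tested genes, 73.1% of those at least 2-fold above and 61.9% of those at least 2-fold below, too few for a fair comparison.

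The 8 libraries held between 32076695 and 35062545 counts, with 20326 to 21358 genes detected, and 1.78% to 2.30% of counts were on mitochondrial genes. The CD8 T cell markers were present throughout, with Cd8a between 739 and 919 CPM. Among defining markers of other cells, S100a8 and S100a9 of neutrophils had 0 counts, Ncr1 of NK cells stayed at or below 0.237 CPM, and Cd4 lay between 3.81 and 6.04 CPM, while Trdc, the constant region of the γδ T cell receptor, read 19.9 to 72.6 CPM and Ighm, the B cell heavy chain, 421 to 921 CPM. The 10 erythroid and platelet markers summed to at most 4.34 CPM in any library. Reads on Il18 check the labels for DRIL18, since delivered and endogenous Il18 mRNA are not told apart in these counts: the gene read 1.84 and 1.84 CPM in Mock, 412 and 401 under DRIL18, 1.83 and 1.73 under IL12, and 403 and 361 in the mixture. Its interaction was -0.04 ± 0.20 SE (adjusted p = 0.912), with the 4 libraries given DRIL18 far above the other 4. For IL-12 the counts give no such check, as Il12a had 3 and 4 counts in Mock, 3 and 9 under DRIL18, 2 and 1 under IL12 and 7 and 3 in the mixture, and Il12b had 0 in all 8.

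Of 15777 tested genes, 4993 (31.6%) departed from the product of the single folds. The mixture was above it for 2296 genes (14.6%) and below it for 2697 (17.1%). At least 2-fold departures numbered 1000 (6.34%), with 372 above (2.36%) and 628 below (3.98%). The median interaction over all tested genes was -0.02, with quartiles at -0.32 and 0.25, and the median SE was 0.13. For comparison, DRIL18 against Mock changed 3832 genes (24.3%) and the mixture against IL12 changed 8232 (52.2%), while IL12 against Mock changed 7356 (46.6%; 23% higher and 23.6% lower) and the mixture against DRIL18 changed 9042 (57.3%; 28.3% higher and 29% lower).

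**Figure D1:**
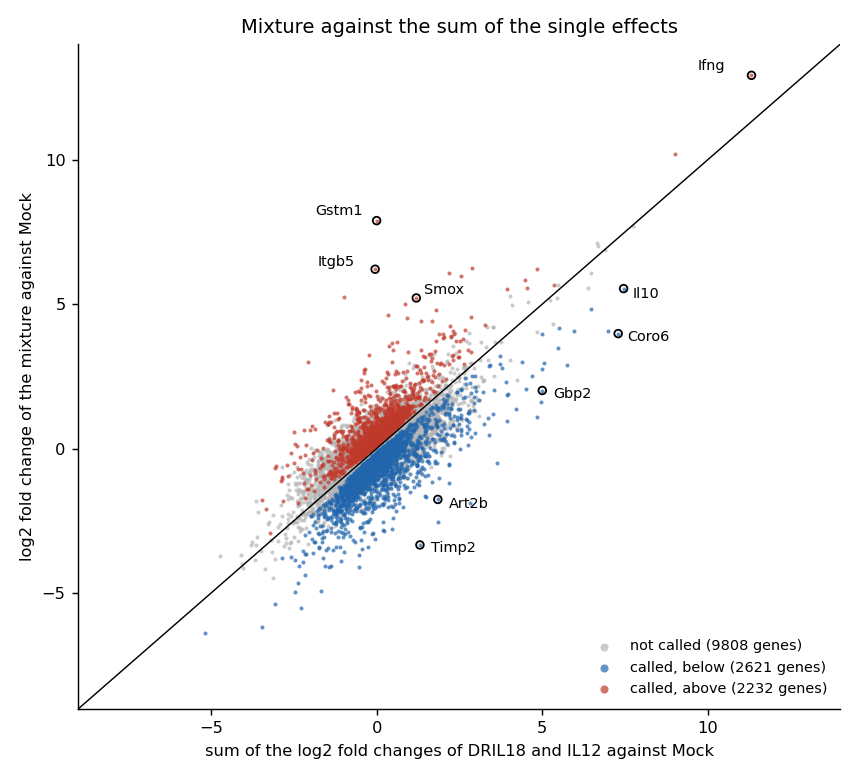
Each point is a tested gene with at least 10 counts in each of the 4 groups (14661 genes); the x axis adds the log2 fold changes of DRIL18 and IL12 over Mock, and the y axis gives the log2 fold change of the mixture over Mock. Genes on the black diagonal have no interaction; 2232 plotted genes were called above it (red) and 2621 below it (blue). Ifng stands at the upper right above the line, Gstm1 and Itgb5 rise far above it near a sum of 0, and Timp2 and Art2b lie below it.

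The commonest form was an effect of DRIL18 that passed the test only in the contrast with IL12 present. Among the 2296 genes above the product, DRIL18 had no called effect without IL12 and a higher level with it in 1338 (58.3%). It was higher in both settings in 663 (28.9%), lower without and not called with IL12 in 122 (5.31%), and lower without but higher with IL12 in 98 (4.27%). Among the 2697 genes below, the effect of DRIL18 went from not called to lower in 1394 (51.7%), was lower in both in 861 (31.9%) and turned from higher to lower in 199 (7.38%). A further 145 (5.38%) went from higher to not called. Seen from IL12, 831 of the genes above (36.2%) went from not called to higher and 753 (32.8%) were higher in both, while of the genes below 934 (34.6%) were lower in both and 306 (11.3%) turned from higher to lower. In total the DRIL18 effect was called in opposite directions in 297 genes and the IL12 effect in 529. The first of these counts dropped to 195 without Mock replicate 1, 173 without Mock replicate 2 and 186 without DRIL18 replicate 1.

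Both mRNAs alone raised 1177 genes, and in these the mixture was above the product for 426, below it for 242 and not called for 509. Both alone lowered 1198 genes, of which 163 were above, 497 below and 538 not called. These sets were chosen on contrasts that share the Mock, DRIL18 and IL12 libraries with the interaction. Noise in those libraries bears on the choice and on the interaction alike, so the share of all tested genes is not a like comparison. Among all tested genes, 14.6% were above and 17.1% below.

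Among the cytokines, Ifng (ENSMUSG00000055170), the gene for IFN-γ, lay above the product of its large single effects. It read 0.906 and 1.43 CPM in Mock, 17.5 and 17.2 under DRIL18, 209.8 and 189 under IL12, and 8882 and 9109 in the mixture. The groups do not overlap, and on a log scale the gaps between them are larger than the spread within any pair. IL12 alone gave a 171-fold and DRIL18 alone a 14.9-fold rise over Mock in mean CPM, whose product is 2537-fold, and the mixture reached 7709-fold (log2 interaction 1.60 ± 0.19 SE, adjusted p = 3.57e-08). The increments of the single mRNAs would add up to 215 CPM, which leaves 8779.8 CPM beyond the sum. The folds rest on 80 counts over both Mock libraries.

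Of 16 tested effector cytokine genes, 4 were above the product and 4 below, against 14.6% and 17.1% of all tested genes, with a median interaction of 0.70 against -0.02 over all tested genes. This median includes members that were not called. The largest value in the list, 13.12, did not pass the test and is also the largest over all tested genes. Lta, encoding lymphotoxin alpha, read 46.5 and 44.9 CPM in Mock, 39 and 52 under DRIL18, 35.4 and 22.5 under IL12, and 65.8 and 69.5 in the mixture. Lta departed by 1.23 ± 0.16 SE in log2 (adjusted p = 2.32e-07). IL12 lay below Mock and the mixture above every other library. Tnf (TNF) read 30 and 27.7 CPM in Mock, 26.5 and 26.2 under DRIL18, 34.1 and 32.2 under IL12, and 45.3 and 41.9 in the mixture. Tnf departed by 0.53 ± 0.10 SE in log2 (adjusted p = 7.36e-05). The fourth gene above was Osm (oncostatin M; 0.36, adjusted p = 0.0184). Below the product were Il10, the gene of an anti-inflammatory cytokine, and Csf1, the macrophage growth factor, with Ltb (-0.60, adjusted p = 1.01e-09) and Lif (-0.52, adjusted p = 0.0068). Il10 read 1.08 and 0.803 CPM in Mock, 1.82 and 1.62 under DRIL18, 92.9 and 89.4 under IL12, and 45 and 42.8 in the mixture (log2 interaction -1.92 ± 0.24 SE, adjusted p = 1.6e-07), so adding DRIL18 to IL12 lowered it (-1.05, adjusted p = 1.74e-14) while DRIL18 alone raised it (0.87, adjusted p = 0.00591). Csf1 read 1.36 and 0.744 CPM in Mock, 1.04 and 1.68 under DRIL18, 7.55 and 7.96 under IL12, and 2.19 and 1.63 in the mixture (log2 interaction -2.38 ± 0.38 SE, adjusted p = 8.64e-06), highest with IL12 alone. Csf2, which encodes GM-CSF, did not pass the test. It read 0.0849 and 0.387 CPM in Mock, 1.13 and 1.24 under DRIL18, 5.0 and 4.66 under IL12, and 29.8 and 31.5 in the mixture (log2 interaction 0.34 ± 0.47 SE, adjusted p = 0.65), and its interaction changed sign without Mock replicate 2 (-1.08, adjusted p = 0.29) in a gene with 16 counts over both Mock libraries. Osm, Ltb and Lif, like other genes named in place of a small count in a gene list, were picked after their values were seen.

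**Figure D2:**
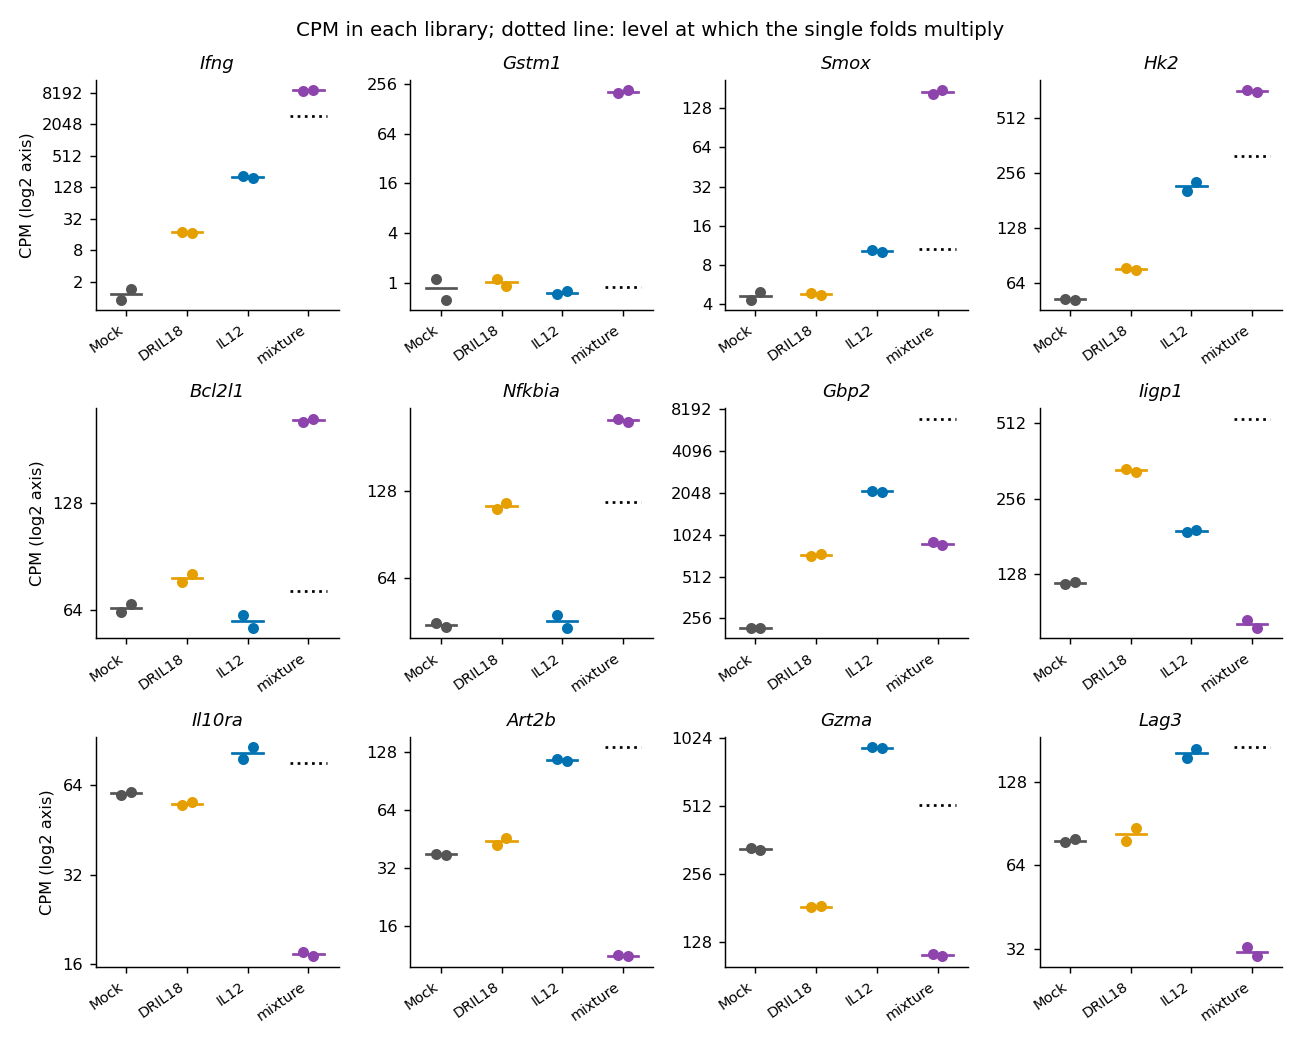
Level of 12 genes in each library in CPM on a log2 axis (points), with the mean of each pair (line); the dotted line over the mixture is the level at which the single folds would multiply. The mixture libraries lie above the dotted line for Ifng, Gstm1, Smox, Hk2, Bcl2l1 and Nfkbia and below it for Gbp2, Iigp1, Il10ra, Art2b, Gzma and Lag3.

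The receptor chains of IL-12 and IL-18 differed. Il18r1, the ligand-binding chain for IL-18, read 73.6 and 72 CPM in Mock, 39 and 40.7 under DRIL18, 814 and 841 under IL12, and 548 and 554 in the mixture. Il18r1 departed from the product by 0.28 ± 0.06 SE in log2 (adjusted p = 0.000856). DRIL18 lowered it by itself (-0.87) and on top of IL12 (-0.59), and the loss was smaller with IL12. Its partner Il18rap read 80.8 and 79.5 CPM in Mock, 54.3 and 49.3 under DRIL18, 419 and 429 under IL12, and 316 and 307 in the mixture with an interaction of 0.18 ± 0.07 SE (adjusted p = 0.0449), a call that was lost with limma on the deposited log2 values (adjusted p = 0.07) and in 5 of the 10 fits that left out a library, with 0.12 without DRIL18 replicate 2. Il12rb2, the chain that couples to STAT4, read 92.5 and 85.8 CPM in Mock, 119 and 119.8 under DRIL18, 264 and 275 under IL12, and 254 and 255 in the mixture (log2 interaction -0.51 ± 0.06 SE, adjusted p = 5.17e-08), and Il12rb1 read 143 and 146 CPM in Mock, 182 and 177 under DRIL18, 164 and 162 under IL12, and 143 and 142 in the mixture. Il12rb1 departed by -0.51 ± 0.05 SE in log2 (adjusted p = 5.17e-09). DRIL18 raised both chains without IL12 (0.42 and 0.31). With IL12 present its effect on Il12rb2 did not pass the test (-0.09, adjusted p = 0.0754), and Il12rb1 was lower (-0.20, adjusted p = 6.54e-05).

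Across 24 tested cytokine receptor genes, 14 were below the product and 3 above, against 17.1% and 14.6% of all tested genes, with a median of -0.40. The third above, beside Il18r1 and Il18rap, was Ifngr2, the signalling chain of the IFN-γ receptor. It read 14 and 14.1 CPM in Mock, 13.4 and 12.9 under DRIL18, 1.44 and 1.32 under IL12, and 3.68 and 4.54 in the mixture. Ifngr2 departed from the product by 1.67 ± 0.20 SE in log2 (adjusted p = 7.7e-08). IL12 brought it down, and the mixture stood between IL12 and Mock. Below were Il10ra, the IL-10 receptor chain, at 59.3 and 60.5 CPM in Mock, 54.7 and 56 under DRIL18, 78 and 85.6 under IL12, and 17.6 and 17 in the mixture (log2 interaction -2.13 ± 0.08 SE, adjusted p = 2.37e-19), and Il6st, the shared gp130 chain, which IL12 raised to 492 CPM on average and which stood at 188 CPM in the mixture (log2 interaction -1.32 ± 0.06 SE, adjusted p = 9.15e-18). Il7r, for the survival cytokine IL-7, was at 184 CPM in Mock, 189.7 under DRIL18, 223 under IL12 and 93.6 in the mixture (log2 interaction -1.29 ± 0.05 SE, adjusted p = 2.89e-18).

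In the JAK-STAT and SOCS list, 4 of 21 genes were above and 8 below, against 14.6% and 17.1% of all tested genes, with a median of 0.004. Stat4, the factor activated by IL-12, read 102 and 96.3 CPM in Mock, 84 and 83.6 under DRIL18, 83.5 and 79.2 under IL12, and 71.1 and 71.6 in the mixture and did not pass the test (log2 interaction 0.05 ± 0.06 SE, adjusted p = 0.601). Stat2 (-0.64, adjusted p = 3.67e-09), a factor of type I interferon signalling, and the feedback inhibitor Socs1 (-0.55, adjusted p = 2.95e-07) were below. Cish, a feedback inhibitor induced by STAT5, was the member farthest above, with 168 and 165 CPM in Mock, 125 and 129.7 under DRIL18, 93.9 and 102 under IL12, and 189 and 178 in the mixture. Cish departed from the product by 1.29 ± 0.06 SE in log2 (adjusted p = 1.06e-16). Each mRNA alone lowered Cish (-0.39 for DRIL18 and -0.77 for IL12), and in the mixture it lay above Mock. The others above were Stat5a (0.23), Tyk2 (0.20) and Ptpn1 (0.18).

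On the IL-18 side, 6 of 21 genes of MyD88 and GADD45-p38 signalling were above and 5 below, against 14.6% and 17.1% of all tested genes, with a median of -0.10. The adaptor Myd88 read 51.4 and 51.8 CPM in Mock, 46 and 48.6 under DRIL18, 125 and 132 under IL12, and 95.5 and 91.7 in the mixture (log2 interaction -0.33 ± 0.07 SE, adjusted p = 0.000355), raised by IL12 and less so in the mixture. Irak3, an inhibitor of IRAK signalling, went the other way: 1.7 and 1.93 CPM in Mock, 4.5 and 4.48 under DRIL18, 0.523 and 0.598 under IL12, and 10.5 and 11.6 in the mixture. Irak3 departed by 2.98 ± 0.30 SE in log2 (adjusted p = 1.9e-09). Gadd45b, an activator of p38 induced by NF-κB, read 7.67 and 8.86 CPM in Mock, 18 and 16.9 under DRIL18, 10.9 and 9.97 under IL12, and 56.3 and 59.7 in the mixture. Gadd45b departed from the product by 1.39 ± 0.13 SE in log2 (adjusted p = 2.26e-10). Its relative Gadd45g, which IL12 raised to 185 CPM from 21.5 CPM, had a smaller departure (0.50, adjusted p = 4.07e-05), as had the p38 kinase kinase Map2k3 (0.48, adjusted p = 5.53e-07).

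NF-κB subunits and target genes were above the product in 12 of 22, against 14.6% of all tested genes, and Cflar was below (-0.24, adjusted p = 0.00291), with a median of 0.19. Nfkbia, the inhibitor IκBα, read 44.5 and 43 CPM in Mock, 110.4 and 116 under DRIL18, 47.4 and 42.8 under IL12, and 227 and 221 in the mixture. Nfkbia departed by 0.95 ± 0.07 SE in log2 (adjusted p = 5.89e-12). IL12 alone left it near Mock (0.04, adjusted p = 0.563), and the DRIL18 effect was 2.31 with IL12 and 1.37 without. Nfkbiz, a nuclear IκB protein, read 15.5 and 15 CPM in Mock, 27.4 and 27.5 under DRIL18, 32.8 and 31.5 under IL12, and 114 and 118 in the mixture. Nfkbiz departed from the product by 1.00 ± 0.09 SE in log2 (adjusted p = 1.25e-10). Tnip1, which restrains NF-κB with A20, read 115 and 112 CPM in Mock, 144 and 146 under DRIL18, 90.4 and 84.5 under IL12, and 236 and 253 in the mixture (log2 interaction 1.13 ± 0.06 SE, adjusted p = 1.12e-15), and the surface protein Cd83 went from 1.26 CPM in Mock to 11 CPM in the mixture (log2 interaction 1.44 ± 0.29 SE, adjusted p = 0.000214). In all 4 the mixture libraries lay above the other 6.

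Genes of the IFN-γ response and antigen presentation showed the reverse: of 40 tested, 33 were below the product, against 17.1% of all tested genes, and 0 above. Their median interaction was -0.86 against -0.02. Between 33 and 34 members were below and 0 above under every alternative run. Without IL12, DRIL18 raised 37 of the 40 and lowered 0, with a median effect of 0.68, where 12.2% of all tested genes were raised and 12.1% lowered. On top of IL12 it raised 8 and lowered 27, with a median of -0.27, where 25.8% of all tested genes were raised and 26.3% lowered. This stood beside the rise of Ifng itself described above. Gbp2 (ENSMUSG00000028270), a guanylate-binding protein whose promoter is shown above, read 218 and 219.7 CPM in Mock, 717 and 746 under DRIL18, 2121 and 2082 under IL12, and 907 and 860.0 in the mixture. Gbp2 departed by -2.99 ± 0.05 SE in log2 (adjusted p = 1.04e-27). The single mRNAs raised it 3.34-fold and 9.59-fold, and the mixture 4.03-fold, below IL12 alone. Iigp1, an immunity-related GTPase, read 118 and 119 CPM in Mock, 336 and 328 under DRIL18, 188 and 192 under IL12, and 83.8 and 78.2 in the mixture (log2 interaction -2.72 ± 0.06 SE, adjusted p = 1.42e-25), so that its mixture libraries fell under Mock. Gbp10 read 13.9 and 14.4 CPM in Mock, 42.4 and 40 under DRIL18, 7.12 and 6.54 under IL12, and 2.74 and 2.64 in the mixture. Gbp10 departed from the product by -2.88 ± 0.16 SE in log2 (adjusted p = 1.46e-15). Serpina3f, a serine protease inhibitor, read 1.22 and 1.37 CPM in Mock, 29.2 and 30.2 under DRIL18, 1.73 and 1.89 under IL12, and 9.58 and 7.92 in the mixture (log2 interaction -2.25 ± 0.24 SE, adjusted p = 5.25e-09), lower in the mixture than with DRIL18 alone though above Mock. Guanylate-binding proteins and Serpina3 genes have near-identical copies, and how reads shared between copies were counted was not given in the sources used here. In bulk samples, fewer cells expressing a gene and less RNA per cell cannot be told apart.

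The 7 members that did not pass were 5 MHC class II genes (Cd74, H2-Aa, H2-Ab1, H2-Eb1 and H2-DMb1), their activator Ciita, and Nos2. The summed level of 15 B cell markers, cells that also make MHC class II, was 702 to 706 CPM in Mock, 929.8 to 980 CPM under DRIL18, 456 to 492 CPM under IL12 and 576 to 589.5 CPM in the mixture, most of it Ighm. Of these 15 markers Fcer2a and Igkc were above the product and Ighm (-0.19, adjusted p = 0.00621) and Ighd below, against 14.6% and 17.1% of all tested genes. Ighm lost its call without DRIL18 replicate 2, with an interaction of -0.15. Their part in the result was not tested.

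Antiviral interferon-stimulated genes were below the product in 19 of 36, against 17.1% of all tested genes, with 1 above, the RNA sensor Ifih1 (0.64, adjusted p = 0.00105), and a median of -0.61. Ifi209, a DNA-sensor relative of the Ifi200 family, read 242 and 245 CPM in Mock, 227 and 227 under DRIL18, 304 and 289 under IL12, and 41.7 and 42.3 in the mixture (log2 interaction -2.72 ± 0.06 SE, adjusted p = 8.71e-26), where the mixture lay far under the other 6 libraries. Ifit1, an RNA-binding antiviral protein, read 2.58 and 2.29 CPM in Mock, 3.72 and 4.04 under DRIL18, 3.4 and 3.55 under IL12, and 1.55 and 0.919 in the mixture. Ifit1 departed by -2.16 ± 0.31 SE in log2 (adjusted p = 1.31e-06). Ifi44 had 3 counts over both Mock libraries, so no fold is given; it read 0.0566 and 0.0297 CPM in Mock, 0.462 and 0.383 under DRIL18, 4.93 and 4.0 under IL12, and 0.613 and 0.593 in the mixture. Ifi204 (3.26 CPM with IL12 and 0.484 CPM in the mixture; -2.43, adjusted p = 0.00422) lost its call without DRIL18 replicate 2 (adjusted p = 0.168).

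**Figure D3:**
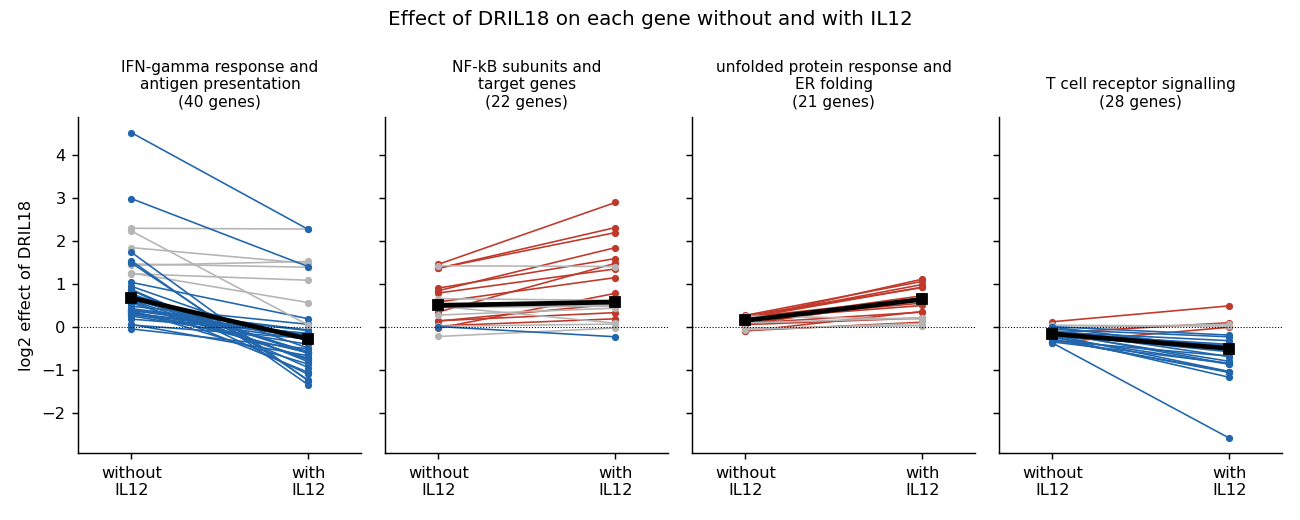
Log2 effect of DRIL18 on each tested member of 4 gene lists without IL12 (DRIL18 against Mock, left of each panel) and with IL12 (mixture against IL12, right). Red lines are genes called above the product, blue lines genes called below, grey lines genes not called, and the thick black line is the list median. The IFN-γ response median moves from 0.68 to -0.27, the NF-κB median from 0.50 to 0.59, the unfolded protein response median from 0.16 to 0.65 and the T cell receptor signalling median from -0.15 to -0.49.

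Effector transcription factors were split, with 7 of 32 above and 13 below, against 14.6% and 17.1% of all tested genes, and a median of -0.23. Tbx21, encoding T-bet, read 79.5 and 80 CPM in Mock, 88.6 and 85.2 under DRIL18, 181 and 178 under IL12, and 228 and 226 in the mixture (log2 interaction 0.21 ± 0.06 SE, adjusted p = 0.00372), an excess of small size over the product. Eomes, its relative, read 13.7 and 13.2 CPM in Mock, 4.44 and 5.63 under DRIL18, 15.2 and 11.3 under IL12, and 1.26 and 1.25 in the mixture. Eomes departed from the product by -1.98 ± 0.24 SE in log2 (adjusted p = 5.83e-08). DRIL18 lowered it without IL12 (-1.42) and more with it (-3.40). Nr4a1 and Egr1 are both induced by T cell receptor signals. Nr4a1 rose above the product, with 2.04 and 2.74 CPM in Mock, 4.59 and 4.95 under DRIL18, 2.81 and 2.61 under IL12, and 17.3 and 17.4 in the mixture (log2 interaction 1.67 ± 0.23 SE, adjusted p = 1.07e-06), while Egr1 was highest with IL12 alone, with 14 and 16.1 CPM in Mock, 10.6 and 10.6 under DRIL18, 54 and 50.8 under IL12, and 11.3 and 13.3 in the mixture. Egr1 departed from the product by -1.60 ± 0.13 SE in log2 (adjusted p = 8.9e-12). Hlx, a partner of T-bet, read 0.113 and 0.149 CPM in Mock, 0.115 and 0.147 under DRIL18, 6.21 and 5.03 under IL12, and 1.26 and 1.13 in the mixture (-2.24, adjusted p = 0.0232), and lost the call in 3 of the 10 fits without a library.

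Of 23 cytotoxic granule genes, 11 were below the product and 3 above, against 17.1% and 14.6% of all tested genes, with a median of -0.17. Gzmb, for granzyme B, read 1970.0 and 1983 CPM in Mock, 1701 and 1832 under DRIL18, 2288 and 1905 under IL12, and 1319.8 and 1379 in the mixture. Gzmb departed by -0.47 ± 0.07 SE in log2 (adjusted p = 4.63e-06). Prf1, for perforin, read 9.79 and 10.6 CPM in Mock, 13.2 and 13.2 under DRIL18, 24.7 and 28.8 under IL12, and 34.9 and 36.4 in the mixture and did not pass the test (log2 interaction 0.04 ± 0.12 SE, adjusted p = 0.852); the estimate changed sign in 2 of the fits without a library. Gzma read 333 and 327 CPM in Mock, 182 and 184 under DRIL18, 936 and 927 under IL12, and 113 and 110.1 in the mixture (log2 interaction -2.21 ± 0.05 SE, adjusted p = 7.24e-25), with the mixture below each other library, and Gzmk read 2.21 and 2.32 CPM in Mock, 2.94 and 3.54 under DRIL18, 24.5 and 23.9 under IL12, and 4.06 and 4.69 in the mixture. Gzmk departed from the product by -2.99 ± 0.21 SE in log2 (adjusted p = 6.62e-13). Above the product were the granzyme inhibitors Serpinb9, at 32.7 and 31.3 CPM in Mock, 32.2 and 32.5 under DRIL18, 50.9 and 48.6 under IL12, and 141 and 140.0 in the mixture (log2 interaction 1.48 ± 0.07 SE, adjusted p = 2.08e-16), and Serpinb6b, at 15.5 CPM in Mock and 38.6 CPM in the mixture (1.69, adjusted p = 2.84e-13), with Gzmc (0.65, adjusted p = 0.000872). Granzyme genes and the Serpinb9 and Serpinb6 families also have close copies. The 12 NK cell markers summed to 373 to 382 CPM in Mock, 214 to 215 under DRIL18, 979 to 989 under IL12 and 134 to 137 in the mixture, most of it Gzma itself, with Ncr1 and Klrb1c near 0. Of 8 tested NK markers 3 were below and 0 above, against 17.1% and 14.6% of all tested genes.

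The inhibitory receptor list also holds the PD-1 ligand gene Pdcd1lg2 and enzymes that make adenosine. Of its 18 genes, 10 were below the product and 4 above, against 17.1% and 14.6% of all tested genes, with a median of -0.56. Lag3, a receptor for MHC class II, read 77.4 and 79.8 CPM in Mock, 78.5 and 86.9 under DRIL18, 156 and 168 under IL12, and 32.5 and 30.1 in the mixture. Lag3 departed by -2.45 ± 0.08 SE in log2 (adjusted p = 1.04e-21). IL12 raised it, and the mixture lay under Mock. Nt5e (CD73) and Entpd1 (CD39), the enzymes that make adenosine outside the cell, went the same way. Nt5e read 17.6 and 16.6 CPM in Mock, 8.8 and 9.43 under DRIL18, 42.6 and 45.9 under IL12, and 2.31 and 2.73 in the mixture (log2 interaction -3.22 ± 0.15 SE, adjusted p = 6.05e-17) and Entpd1 21 and 20.2 CPM in Mock, 17.5 and 17.7 under DRIL18, 46.7 and 51.7 under IL12, and 12.8 and 14.8 in the mixture. Entpd1 departed by -1.61 ± 0.11 SE in log2 (adjusted p = 4.19e-13). Pdcd1, for PD-1, read 17.6 and 17.6 CPM in Mock, 17.3 and 16.1 under DRIL18, 40.9 and 49.8 under IL12, and 24.9 and 22 in the mixture (log2 interaction -0.87 ± 0.12 SE, adjusted p = 1.16e-06), and Cd200r1 was at 3.44 CPM in Mock and 0.72 CPM in the mixture (-1.52, adjusted p = 0.000496). The 4 above were Tigit (1.31, adjusted p = 8.6e-11), Klrc1 (0.93, adjusted p = 1.86e-05), Pdcd1lg2 (0.74, adjusted p = 0.00278) and Btla (0.38, adjusted p = 0.000674).

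Costimulatory receptors and TNF family genes had 11 of 24 above and 8 below, against 14.6% and 17.1% of all tested genes. Their median of 0.22 turned to -0.02 under a stricter filter on low counts and to -0.03 with limma on the deposited log2 values. Tnfsf14, the ligand LIGHT, read 4.56 and 4.52 CPM in Mock, 3.17 and 3.24 under DRIL18, 2.55 and 2.08 under IL12, and 8.26 and 8.12 in the mixture (log2 interaction 2.33 ± 0.24 SE, adjusted p = 2.76e-09), lowered by each mRNA alone and raised in the mixture. Cd40lg was at or under 1.84 CPM in group means (1.98, adjusted p = 0.00821) and lost its call without IL12 replicate 2 (adjusted p = 0.0796), and its interaction was 3.06 without IL12 replicate 1. Slamf6, a SLAM receptor of memory-type T cells, read 75.7 and 75.9 CPM in Mock, 91.9 and 87 under DRIL18, 95.4 and 91.9 under IL12, and 26 and 23 in the mixture (log2 interaction -2.17 ± 0.08 SE, adjusted p = 2.05e-20), and the CD28 ligand Cd86 read 4.61 and 4.37 CPM in Mock, 7.76 and 7.84 under DRIL18, 14.7 and 15.7 under IL12, and 6.74 and 5.66 in the mixture. Cd86 departed from the product by -2.09 ± 0.18 SE in log2 (adjusted p = 4e-11). The 8 markers of CD4 and regulatory T cells summed to 250.1 to 255.5 CPM in Mock, 288 to 293 under DRIL18, 370.3 to 379 under IL12 and 219 to 225.5 in the mixture. Of the 8, Ctla4 (-1.20, adjusted p = 6.7e-18), Nrp1 (-1.72, adjusted p = 4.93e-13) and Foxp3 were below and Cd40lg above, against 17.1% and 14.6% of all tested genes. Foxp3, which defines regulatory T cells, was at 1.1 and 0.952 CPM in Mock, 0.462 and 0.442 under DRIL18, 1.21 and 1.76 under IL12, and 0.0292 and 0.178 in the mixture (-2.62, adjusted p = 0.00584), and lost the call without mixture replicate 1 (adjusted p = 0.0698), and its interaction was -4.32 without mixture replicate 2. The part of such cells in these results was not tested.

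Of 10 tested chemokine genes, Ccl22 was above the product (2.37, adjusted p = 0.0162, at most 1.01 CPM in group means, its call lost in 3 of the fits without a library, with 1.53 without Mock replicate 1). Ccl1 (-2.36, adjusted p = 0.00779), Xcl1 and Ccl5 were below, 3 of 10 against 17.1% of all tested genes. Xcl1, which attracts XCR1-bearing dendritic cells, read 1.84 and 1.49 CPM in Mock, 2.8 and 2.09 under DRIL18, 4.12 and 3.93 under IL12, and 1.08 and 1.28 in the mixture. Xcl1 departed by -2.32 ± 0.34 SE in log2 (adjusted p = 2.17e-06). Ccl5 read 18.8 and 18.2 CPM in Mock, 22.6 and 23.5 under DRIL18, 7.87 and 5.06 under IL12, and 4.38 and 4.0 in the mixture. Ccl5 departed from the product by -0.94 ± 0.18 SE in log2 (adjusted p = 9.07e-05), and by -0.59 without IL12 replicate 1 (adjusted p = 0.00762). Of 15 chemokine receptor genes, 5 were below, against 17.1% of all tested genes, and Ccr4 above (0.50, adjusted p = 0.000188). Cxcr3, the receptor for IFN-γ-induced chemokines, fell in each group and beyond the product in the mixture, with 259 and 261 CPM in Mock, 219 and 229.7 under DRIL18, 194 and 185 under IL12, and 83.5 and 77.8 in the mixture. Cxcr3 departed by -1.02 ± 0.06 SE in log2 (adjusted p = 5.41e-15). Cxcr6 read 189 and 185 CPM in Mock, 125 and 123 under DRIL18, 512 and 515 under IL12, and 222 and 204 in the mixture (log2 interaction -0.68 ± 0.06 SE, adjusted p = 2.85e-11), and Ccr2 (-0.73, adjusted p = 2.16e-08) and Ccr7 (-0.66, adjusted p = 2.85e-11) were also below. Xcr1 (-0.62, adjusted p = 0.0108), which also served as a dendritic cell marker, lost its call without DRIL18 replicate 1 (adjusted p = 0.135). The 16 markers of dendritic cells and macrophages summed to at most 23.8 CPM in any library, with 4 of them at 0 in all 8.

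Naive and memory genes were below the product in 20 of 30 and above in 6, against 17.1% and 14.6% of all tested genes, with a median of -0.53. Klf2, a transcription factor of resting T cells, fell with each mRNA and further in the mixture, with 86.8 and 91.7 CPM in Mock, 57.2 and 58.7 under DRIL18, 31.8 and 29.5 under IL12, and 7.36 and 7.06 in the mixture. Klf2 departed by -1.46 ± 0.10 SE in log2 (adjusted p = 2.42e-13). Ly6c2 stood at 131 CPM in Mock, 143 under DRIL18, 135 under IL12 and 39.6 in the mixture (log2 interaction -1.90 ± 0.07 SE, adjusted p = 4.19e-20), with single effects of 0.13 for DRIL18 and 0.05 for IL12. Among 24 integrin and adhesion genes, 12 were below and 5 above, against 17.1% and 14.6% of all tested genes, with a median of -0.27. Cdh1, for E-cadherin, read 6.91 and 7.85 CPM in Mock, 3.75 and 2.89 under DRIL18, 3.07 and 5.06 under IL12, and 0.0876 and 0.089 in the mixture. Cdh1 departed from the product by -4.32 ± 0.50 SE in log2 (adjusted p = 2.87e-08). It had 6 counts over both mixture libraries, so the size of this departure is uncertain. Itgb3 was lower (-1.35, adjusted p = 3e-13), and Cd69, which retains T cells in tissue, read 30.2 and 29.8 CPM in Mock, 45.3 and 43.9 under DRIL18, 67.2 and 58.9 under IL12, and 247 and 246 in the mixture. Cd69 departed by 1.39 ± 0.08 SE in log2 (adjusted p = 2.84e-15). The other 4 above were Itga5, Itgav, Icam2 and Cd44.

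T cell receptor signalling genes were below the product in 23 of 28, against 17.1% of all tested genes, and above in 3 (Ptpn6 0.37, adjusted p = 3.21e-06, Nfatc2 0.36, adjusted p = 1.36e-05 and Lcp2 0.24, adjusted p = 0.0012), with a median of -0.34. Dgka, a kinase that dampens receptor signals by removing diacylglycerol, read 727 and 740.0 CPM in Mock, 624 and 637 under DRIL18, 531 and 519 under IL12, and 238 and 231 in the mixture. Dgka departed from the product by -0.95 ± 0.05 SE in log2 (adjusted p = 9.9e-16). Prkcq, the protein kinase C of the T cell synapse, read 271 and 274 CPM in Mock, 236 and 245 under DRIL18, 275 and 272 under IL12, and 131 and 137 in the mixture (log2 interaction -0.85 ± 0.05 SE, adjusted p = 2.72e-14), not called with IL12 alone (effect 0.00) and lower in the mixture than in any other group. Fyn, a Src kinase, read 243 and 246 CPM in Mock, 199 and 203 under DRIL18, 443 and 441 under IL12, and 215 and 211 in the mixture (log2 interaction -0.77 ± 0.05 SE, adjusted p = 8.33e-14), and the phosphatase Ubash3b was at 11.4 CPM with IL12 and 1.9 CPM in the mixture (log2 interaction -2.21 ± 0.23 SE, adjusted p = 3.87e-09). CD8 T cell markers, some of them chains of the receptor complex itself, were mostly below as well. Of all tested genes, 17.1% were below and 14.6% above. Of 10, Cd3g (-0.74, adjusted p = 1.08e-12), Cd3d (-0.61, adjusted p = 5.41e-10), Cd247 (-0.26, adjusted p = 0.000632) and 3 more were below and Trbc2 was above (0.26, adjusted p = 0.000337), and their summed level was 8221 to 8396 CPM in Mock, 7822 to 7945 under DRIL18, 6480 to 6810 under IL12 and 6291 to 6490 in the mixture. Markers of γδ T cells summed to 129 to 132 CPM in Mock, 104 to 112 under DRIL18, 66.2 to 74.7 under IL12 and 49.6 to 50.9 in the mixture. Of these, 1 of 8 tested, Trdc, was below (-0.46, adjusted p = 6.6e-05), against 17.1% of all tested genes.

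In the unfolded protein response and ER folding list, 17 of 21 were above the product, against 14.6% of all tested genes, and 0 below, with a median of 0.45; the count above ranged from 15 to 18 over the alternatives run. Hyou1, an ER chaperone, read 179 and 181 CPM in Mock, 210.4 and 225 under DRIL18, 212 and 191 under IL12, and 426 and 419 in the mixture. Hyou1 departed by 0.79 ± 0.06 SE in log2 (adjusted p = 1.02e-11). Manf, a factor secreted under ER stress, read 114 and 117 CPM in Mock, 135 and 134 under DRIL18, 126 and 114 under IL12, and 242 and 236 in the mixture (log2 interaction 0.77 ± 0.06 SE, adjusted p = 2.6e-11), and the disulfide isomerase Pdia6 read 245 and 249.8 CPM in Mock, 282 and 291 under DRIL18, 251 and 245 under IL12, and 474 and 471 in the mixture. Pdia6 departed from the product by 0.72 ± 0.05 SE in log2 (adjusted p = 4.93e-13). Dnajb9, a cochaperone of the ER, was also above (0.92, adjusted p = 4.16e-06). Single effects on these 4 genes lay between -0.22 and 0.28 in log2, and the mixture libraries lay above the other 6.

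ATF4 stress and amino acid genes were above in 24 of 30, against 14.6% of all tested genes, with a median of 0.42. The 1 below was Wars (-0.57, adjusted p = 5.97e-10), the tryptophan tRNA synthetase, which is also known as an interferon-induced gene. Slc7a11, the cystine transporter, read 0.17 and 0.178 CPM in Mock, 0.115 and 0.324 under DRIL18, 0.131 and 0.126 under IL12, and 2.28 and 2.61 in the mixture (log2 interaction 3.89 ± 0.88 SE, adjusted p = 0.000866), and Chac1, which degrades glutathione, read 0.509 and 0.625 CPM in Mock, 0.75 and 0.531 under DRIL18, 0.849 and 1.07 under IL12, and 5.49 and 6.05 in the mixture. Chac1 departed by 2.40 ± 0.45 SE in log2 (adjusted p = 9.29e-05). Slc7a11 had 12 counts over both Mock libraries and 8 over both IL12 libraries, so the size of its departure is uncertain. The arginine transporter Slc7a3 read 0.509 and 0.684 CPM in Mock, 2.31 and 2.59 under DRIL18, 3.56 and 3.18 under IL12, and 30.8 and 26.2 in the mixture (log2 interaction 1.04 ± 0.31 SE, adjusted p = 0.00993), without Mock replicate 2 at 0.82 (adjusted p = 0.166). Aldh1l2 (3.05, adjusted p = 0.0394), a mitochondrial folate enzyme at or under 1.31 CPM in group means, lost its call in 8 of 18 alternatives.

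MYC and ribosome biogenesis genes were above in 17 of 22, against 14.6% of all tested genes, and below in 0, with a median of 0.30. The polyamine enzymes Odc1 and Srm led. Odc1 read 301 and 295 CPM in Mock, 339.9 and 348 under DRIL18, 471 and 425 under IL12, and 818 and 807 in the mixture (log2 interaction 0.66 ± 0.06 SE, adjusted p = 2.41e-10) and Srm read 82.3 and 80.2 CPM in Mock, 125 and 116 under DRIL18, 125 and 118 under IL12, and 285 and 276 in the mixture. Srm departed from the product by 0.64 ± 0.06 SE in log2 (adjusted p = 1.55e-09). Rrp9 (0.44, adjusted p = 0.000168) and Nop2 (0.43, adjusted p = 6.52e-06), which process and modify ribosomal RNA, had smaller departures. Smox, which oxidises spermine and so acts in the same polyamine pathway, read 4.3 and 4.91 CPM in Mock, 4.82 and 4.69 under DRIL18, 10.5 and 10 under IL12, and 164 and 177 in the mixture. Smox departed from the product by 4.01 ± 0.14 SE in log2 (adjusted p = 4.01e-20). The mixture was 16.2 times the product of the single folds, while the effect of DRIL18 alone did not pass the test (0.05, adjusted p = 0.831).

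Of 40 cytosolic ribosomal protein genes, 26 were below the product, against 17.1% of all tested genes, and 0 above, by small amounts (median -0.19). The count below ranged from 21 to 33 over the alternatives. Rps20 was at 781 CPM in Mock, 897 under DRIL18, 931 under IL12 and 812 in the mixture (log2 interaction -0.40 ± 0.06 SE, adjusted p = 3.92e-06), and Rpl13 (-0.34, adjusted p = 3.14e-05), Rps28 (-0.32, adjusted p = 0.000139) and Rps18 (-0.31, adjusted p = 6.84e-05) followed. Ribosomal protein genes have many processed copies, so reads may be split among them. Oxidative phosphorylation subunits were below in 13 of 30, against 17.1% of all tested genes, and above in 0, with a median of -0.10. Cox5a, a subunit of cytochrome c oxidase, was at 104 CPM in Mock, 105 under DRIL18, 143 under IL12 and 94.6 in the mixture (log2 interaction -0.62 ± 0.06 SE, adjusted p = 2.66e-09), with Cox5b (-0.47, adjusted p = 1.14e-07) and Sdhd (-0.40, adjusted p = 8.48e-07). Ndufa1 (-0.28, adjusted p = 0.0162) lost its call in 4 of the fits without a library.

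Glycolysis and hypoxia genes were below the product in 15 of 32 and above in 2, against 17.1% and 14.6% of all tested genes, with a median of -0.22. The 2 above were Hk2, the hexokinase that starts glycolysis, and the hypoxia factor Hif1a (0.42, adjusted p = 9.69e-07). Hk2 read 51.9 and 51.8 CPM in Mock, 76.7 and 75.2 under DRIL18, 205 and 229 under IL12, and 731 and 714 in the mixture. Hk2 departed by 1.18 ± 0.06 SE in log2 (adjusted p = 1.11e-15). The mixture exceeded every other library, and each mRNA alone raised it. Egln3, a hydroxylase induced by hypoxia factors, read 59.9 and 61.5 CPM in Mock, 81.7 and 81.8 under DRIL18, 340.5 and 387 under IL12, and 249 and 240.0 in the mixture (log2 interaction -1.0 ± 0.07 SE, adjusted p = 1.86e-12), and the aldolase gene Aldoc read 5.92 and 6.28 CPM in Mock, 8.68 and 9.64 under DRIL18, 22.1 and 33.4 under IL12, and 14.3 and 14 in the mixture. Aldoc departed by -1.56 ± 0.20 SE in log2 (adjusted p = 2.65e-07). Cholesterol and fatty acid synthesis genes were below in 14 of 32, against 17.1% of all tested genes, and above in 1 (Fasn, 0.32, adjusted p = 6.94e-06), with a median of -0.21. Elovl6, which elongates fatty acids, read 58.5 and 56 CPM in Mock, 47.2 and 45 under DRIL18, 127 and 127 under IL12, and 35 and 33.4 in the mixture. Elovl6 departed from the product by -1.58 ± 0.07 SE in log2 (adjusted p = 3.92e-17). Mvk (-0.58, adjusted p = 0.000168), Dhcr7 (-0.47, adjusted p = 4.3e-05) and Pmvk (-0.42, adjusted p = 0.000937) of the sterol pathway had a larger effect of IL12 without DRIL18 than with it.

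Cell cycle and DNA replication genes were below in 17 of 48, against 17.1% of all tested genes, with a median of -0.10 against -0.02. The 7 above are the same share of the list as genes above among all tested genes (14.6%). Cdkn1a, the cell cycle inhibitor p21 and a p53 target, read 63.7 and 59.6 CPM in Mock, 99.8 and 105 under DRIL18, 159 and 129 under IL12, and 480.2 and 476 in the mixture. Cdkn1a departed by 1.00 ± 0.09 SE in log2 (adjusted p = 1.03e-10). The related inhibitors Cdkn1b (-0.68, adjusted p = 8.55e-11) and Cdkn2b (-1.22, adjusted p = 0.00498) and the factor E2f2 (-0.62, adjusted p = 9.79e-11) were below. Of 26 p53 target and apoptosis genes, 11 were above and 6 below, against 14.6% and 17.1% of all tested genes, with a median of 0.01. Bcl2l1, for the survival protein BCL-XL, read 63.4 and 66.6 CPM in Mock, 76.7 and 81.1 under DRIL18, 62 and 57.1 under IL12, and 216 and 220.3 in the mixture (log2 interaction 1.59 ± 0.07 SE, adjusted p = 7.54e-18), with the single groups near Mock. Bcl2l11, for its opponent BIM, read 57.8 and 61.4 CPM in Mock, 52.4 and 52 under DRIL18, 156 and 162 under IL12, and 60.9 and 59.7 in the mixture. Bcl2l11 departed from the product by -1.21 ± 0.07 SE in log2 (adjusted p = 3.68e-15). IL12 raised it and the mixture returned to the Mock range. The death receptor gene Tnfrsf10b was above (1.12, adjusted p = 2.61e-08) and Sesn1 below (-1.04, adjusted p = 1.31e-13).

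**Figure D4:**
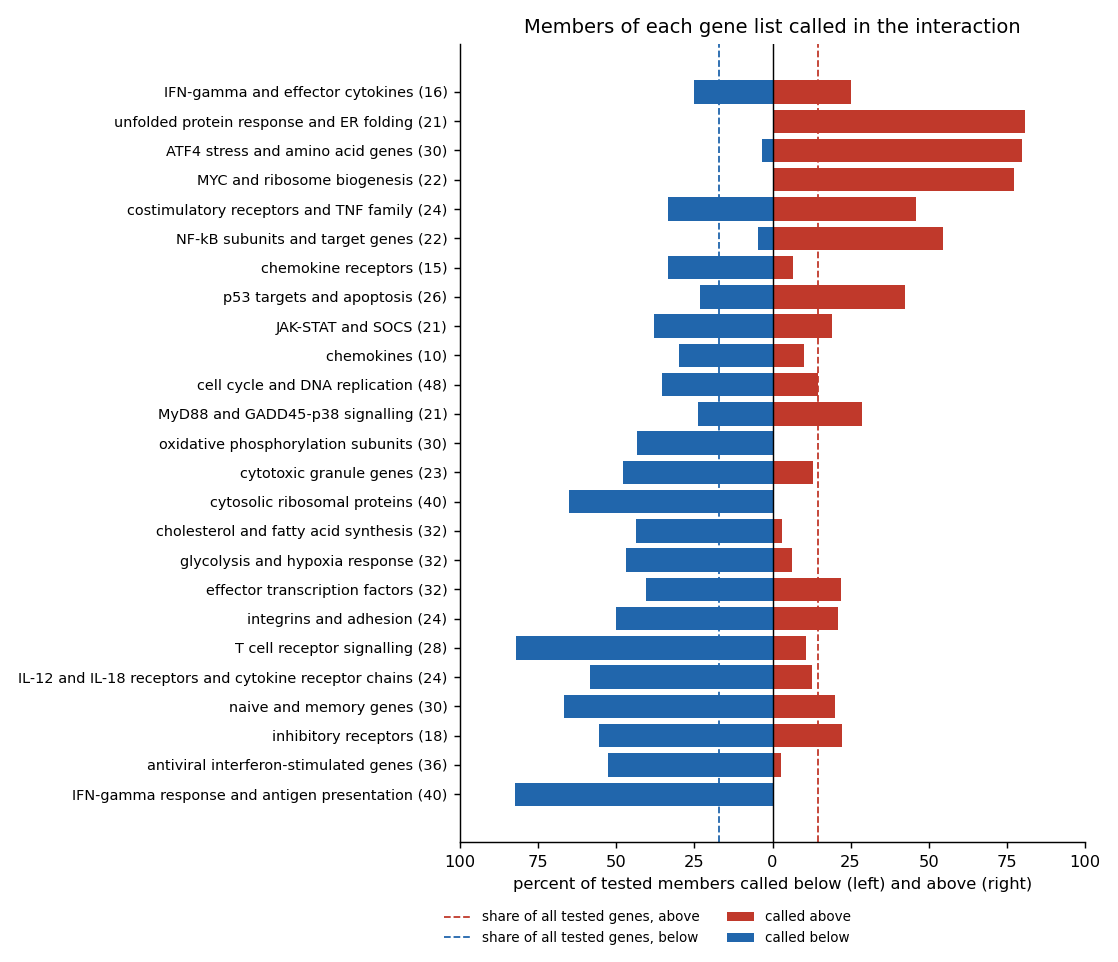
Percent of the tested members of each gene list called below (blue, left) and above (red, right) the product, with the number of tested members in brackets and the lists in order of their median interaction. Dashed lines mark the shares among all tested genes, 17.1% below and 14.6% above. Unfolded protein response, ATF4 and MYC lists extend to the right, and IFN-γ response, T cell receptor signalling, naive and memory and ribosomal protein lists extend to the left.

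Of the 15 genes farthest above the product, each was highest in the mixture. Gstm1, a glutathione transferase, read 1.1 and 0.625 CPM in Mock, 1.1 and 0.914 under DRIL18, 0.719 and 0.786 under IL12, and 198 and 217 in the mixture (log2 interaction 7.89 ± 0.40 SE, adjusted p = 2.54e-16); close copies in its gene cluster make the assignment of its reads uncertain. Itgb5, an integrin chain, read 0.679 and 0.595 CPM in Mock, 2.11 and 1.65 under DRIL18, 0.359 and 0.0629 under IL12, and 44.9 and 49.9 in the mixture. Itgb5 departed from the product by 6.25 ± 0.48 SE in log2 (adjusted p = 5.47e-12). Kctd14 (6.23, adjusted p = 5.92e-13) and Prickle1, a planar polarity gene, were likewise below Mock with IL12 alone and highest in the mixture. DRIL18 alone raised Itgb5 (effect 1.55) and Kctd14 (effect 0.84), while its effect on Prickle1 did not pass the test (-0.38, adjusted p = 0.129). Prickle1 read 3.14 and 2.68 CPM in Mock, 2.34 and 2.15 under DRIL18, 0.915 and 0.881 under IL12, and 22 and 24.3 in the mixture. Prickle1 departed by 5.06 ± 0.25 SE in log2 (adjusted p = 1.89e-16). Pdgfb, for a platelet-derived growth factor chain, went from 1.09 CPM with IL12 to 27.6 CPM in the mixture (log2 interaction 3.88 ± 0.52 SE, adjusted p = 5.58e-07). The glucose transporter relative Slc2a6 read 1.95 and 2.14 CPM in Mock, 7.53 and 7.78 under DRIL18, 1.08 and 1.01 under IL12, and 48.9 and 46.2 in the mixture (log2 interaction 3.60 ± 0.23 SE, adjusted p = 5.07e-14), and Sdc4, for the proteoglycan syndecan-4, reached 35.2 CPM (log2 interaction 3.44 ± 0.37 SE, adjusted p = 9.24e-09). Ppm1l, a protein phosphatase, read 3.54 and 3.93 CPM in Mock, 4.73 and 3.83 under DRIL18, 4.64 and 4.4 under IL12, and 47.8 and 47.4 in the mixture. Ppm1l departed from the product by 3.19 ± 0.18 SE in log2 (adjusted p = 1.66e-15). The other 6, with mixture means between 6.31 and 12.5 CPM, were Xkrx (4.26), Upb1 (4.14), Pik3r6 (3.49), Car13 (3.16), Rnf24 (3.12) and Spib (3.11). Smox, described above, completes the 15.

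Most genes farthest below were highest with IL12 alone. Timp2, an inhibitor of matrix metalloproteinases, read 3.99 and 3.78 CPM in Mock, 2.25 and 2.27 under DRIL18, 15.3 and 17.8 under IL12, and 0.292 and 0.474 in the mixture. Timp2 departed by -4.64 ± 0.30 SE in log2 (adjusted p = 7.64e-14). Art2b, an ADP-ribosyltransferase of the T cell surface, read 38 and 37.6 CPM in Mock, 42.3 and 45.8 under DRIL18, 119 and 115 under IL12, and 11.3 and 11.1 in the mixture. Art2b departed by -3.61 ± 0.09 SE in log2 (adjusted p = 1.83e-24). IL12 raised it 3.1-fold in mean CPM, and in the mixture it was lower than in Mock. Coro6, of the actin-binding coronins, read 0.283 and 0.149 CPM in Mock, 0.26 and 0.236 under DRIL18, 31.1 and 29.9 under IL12, and 3.47 and 3.5 in the mixture (log2 interaction -3.31 ± 0.53 SE, adjusted p = 9.74e-06), still above Mock in the mixture. Ifi213, of the Ifi200 family, took another form, with 55.3 and 58.7 CPM in Mock, 55.1 and 58.2 under DRIL18, 38.9 and 40.5 under IL12, and 3.42 and 3.29 in the mixture. Ifi213 departed from the product by -3.55 ± 0.11 SE in log2 (adjusted p = 4.42e-22). The effect of DRIL18 alone did not pass the test (-0.01, adjusted p = 0.942), and on top of IL12 its effect was -3.56. Ifit1bl1 was likewise lowest in the mixture, at 3.25 CPM against 28.2 CPM in Mock (log2 interaction -3.08 ± 0.13 SE, adjusted p = 2.51e-18). The potassium channel gene Kcna2 and the scaffold gene Cass4 were lowest in the mixture, with 0.206 and 0.499 CPM (-3.27, adjusted p = 5.39e-09, and -3.13, adjusted p = 3.99e-10). Aqp3, the water and glycerol channel, read 5.43 and 4.31 CPM in Mock, 2.63 and 2.74 under DRIL18, 10.2 and 10.3 under IL12, and 0.73 and 0.652 in the mixture. Aqp3 departed from the product by -3.02 ± 0.28 SE in log2 (adjusted p = 3.28e-10). Matn2 (-4.12), Nxpe4 (-3.35), Klrb1f (-3.15) and Scrt1 (-2.90) complete the 15, with Nt5e, Gbp2 and Gzmk described above.

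In 297 genes DRIL18 had opposite called effects without and with IL12. The 6 with the largest interaction are all below the product. For Gbp2 the effect went from 1.74 to -1.25, for Gbp10 from 1.54 to -1.34, for Gzmk from 0.52 to -2.47 and for Scrt1 from 1.76 to -1.15. Art2b (0.22 to -3.39) and Ifit1bl1 (0.32 to -2.76) started from small rises. For IL12 the direction turned in 529 genes. IL12 lowered Itgb5 without DRIL18 (-1.60, adjusted p = 0.00452) and raised it with DRIL18 (4.65, adjusted p = 4.77e-23), and the same held for Kctd14 (-1.84 and 4.39), Prickle1 (-1.69 and 3.36) and Slc2a6 (-0.97 and 2.63). It raised Timp2 (2.09) and Art2b (1.63) without DRIL18 and lowered them with it (-2.55 and -1.98).

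A few genes were at or near 0 in every group but the mixture. The called genes Lum, Gfra2 and 4930593A02Rik had at most 3 counts over both libraries in each of Mock, DRIL18 and IL12. Lum, for the matrix protein lumican, read 0.837 CPM in the mixture on average, Gfra2 0.678 and 4930593A02Rik 0.398. No fold is given for them, and each lost the call in some of the fits without a library. A model on the log scale cannot place some strong cases at all. Il22, for the cytokine IL-22, had 0 counts in Mock, DRIL18 and IL12 and a mean of 33.2 CPM in the mixture, Il6 was at 0 CPM in Mock, 0.0869 under DRIL18, 0 under IL12 and 23.1 in the mixture, and Il13 at 0 CPM in Mock, 1.56 under DRIL18, 0 under IL12 and 15.4 in the mixture. With Mock and IL12 at 0 the interaction of these genes has no defined value, and none of the 3 was called (adjusted p = 1 for Il22). These 3 were picked after their values were seen.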

How the data were processed

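Gene expression was measured by bulk RNA sequencing of polyadenylated RNA (TruSeq stranded mRNA kit, per the labels' protocols). Per the submitters' processing notes the tools were STAR 2.7.9, featureCounts, edgeR and limma, with the mouse build mm39; annotation release, strand setting and treatment of shared reads were not given in the sources used here. Deposited by the authors were raw counts per gene (55359 identifiers, whole numbers, no scaling) and, as the authors' second table, log2 CPM for 13225 of them. Columns were matched to samples by group and replicate number. The mark bis stands on both mixture columns, both NoEp columns, DRIL18 replicate 2 and IL12 replicate 2, with a meaning not given in the sources used here. Symbols came from GENCODE M21 on GRCm38 by identifier (52083 matched, 3276 did not; 75 tested genes have none), and Aldoa stands on a pair of identifiers. No gene coordinates were taken from the files.

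Counts were fitted in edgeR 4.0.16 (R 4.3.3) with 5 group means over all 10 libraries, TMM scaling (factors 0.955 to 1.03) and filterByExpr, which left 15777 tested genes and 5 residual degrees of freedom. The common biological coefficient of variation was 3.39%. Every comparison used the quasi-likelihood F test with Benjamini-Hochberg adjustment over all tested genes, called at an adjusted p under 0.05. No 2 libraries were identical, and replicates of a group differed beyond sampling noise (chi-square per degree of freedom 2.56 to 4.80). The procedure was tested on simulated counts.

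The interaction, the 33 gene lists (745 genes) and the tests were chosen with earlier results of these data known. Lists are described by counts, beside the share of all tested genes called, and by medians, with no set test; the median over all tested genes was -0.02. Named are the 15 largest and 15 smallest interactions among called genes with a non-predicted symbol, 10 counts in each group and 5 CPM in the highest; up to 4 called members per list with the largest departure and at least 1 CPM; fixed pathway genes; the 6 largest direction changes for each mRNA; and called genes with at most 3 counts in each group but the mixture. Genes named in place of a small count were picked after their values were seen. Alternatives were another scaling or filter, DESeq2 1.42.0, limma 3.58.1 on the deposited log2 values, 8 libraries, the replicate number or the mark bis in the model, and each library left out in turn. Some genes are not reported here.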

Additional observations from a re-analysis of the deposited data

Results flagged for a closer look

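For 6 genes the effect of DRIL18 turned direction with IL12 present. They were picked for the largest interaction among called genes with opposite called effects. The adjusted p is that of the interaction term in edgeR, the value that picked them, and is no further support. It tests the difference of both effects and not the change of sign. The differences were -3.61 for Art2b (adjusted p = 1.83e-24), -3.08 for Ifit1bl1, -2.99 for Gbp2 (adjusted p = 1.04e-27), -2.99 for Gzmk, -2.90 for Scrt1 and -2.88 for Gbp10. In all 6 DRIL18 alone raised the gene and lowered it on top of IL12.

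For 6 genes, picked in the same way, the effect of IL12 turned direction with DRIL18 present. It went from lower to higher for Itgb5 (difference 6.25), Kctd14 (6.23), Prickle1 (5.06) and Slc2a6 (3.60), and from higher to lower for Timp2 (-4.64) and Art2b (-3.61). Itgb5 and Kctd14 rest on mean levels under 1 CPM in Mock.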

How the results depend on the processing

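The number of called genes was 4993, and between 4121 and 4976 when a library was left out; at least 2-fold departures, 1000, ranged from 895 to 1044 in those fits. It was 4246 with DESeq2, where 2142 genes have no adjusted p, 4951 with limma on 13225 genes and 5063 with library size only, and no gene shared with the reported calls turned direction in any alternative run. The share above was 46.0% and ranged from 43.4% to 50.8%. The replicate number as a block gave 4980 genes, 4923 of them shared; correlations of same-numbered libraries lay between -0.0557 and 0.115, so the numbers do not show a pairing. The mark bis as a covariate gave 5011. By their place in the design, additive effects of the replicate number and of bis largely cancel in the interaction contrast. Both counts were therefore bound to stay close to the main fit and cannot show whether either mattered. In the single contrasts bis does not cancel. There the bis covariate left opposite called effects of DRIL18 in 227 genes and of IL12 in 426, against 297 and 529 in the main fit. With DESeq2 these numbers were 226 and 419.

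Signs turned for genes and lists near 0. With a library left out, Csf2 ranged from -1.08 (without Mock replicate 2) to 1.07, Prf1 from -0.0656 (without IL12 replicate 1) to 0.154, with -0.0196 without Mock replicate 2, and Il18 from -0.121 to 0.035 (without mixture replicate 2). The median of the costimulatory receptors and TNF family turned to -0.0179 under the stricter filter and -0.0317 with limma, and that of the γδ T cell markers ranged from -0.345 to 0.00483 (without IL12 replicate 1). The cause was not tested. The other named genes kept their direction in all alternatives run, and 17 named genes lost the call in at least 1 of them, including Ighd and Aldoa on its less covered identifier.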
